A study of Mus musculus with 14 samples.

Results

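Tuft cells are rare chemosensory cells of the intestinal epithelium. The 7 genes Dclk1, Trpm5, Pou2f3, Gfi1b, Avil, Alox5ap and Sh2d6, whose transcripts mark tuft cells, were followed in small intestinal organoids of 4 genotypes. They were picked by symbol as known markers of the lineage. All 7 were among the 18781 genes of the deposited expression table. The tests took genes whose mean log2 value reached 3.32 (a linear value of 10), which 6 of the 7 did and Gfi1b did not.

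The organoids were grown from crypts in Matrigel without any treatment. WT organoids (4 libraries) carried floxed alleles of both Atg16l1 and Rnaseh2b and no Cre recombinase. Atg16l1 ΔIEC organoids (4 libraries) carried floxed Atg16l1 and VillinCre+/-, and Rnaseh2b ΔIEC organoids (2 libraries) carried floxed Rnaseh2b and VillinCre+/-. Atg16l1/Rnaseh2b ΔIEC organoids (4 libraries) carried the floxed alleles of both genes with VillinCre+/-. The Villin promoter drives Cre in the intestinal epithelium. Rnaseh2b encodes a subunit of RNase H2, which removes ribonucleotides from DNA, and Atg16l1 encodes a core autophagy protein. The labels give no age of the animals, and nothing says that the libraries of a genotype came from separate animals, so the p-values measure the spread between these libraries, which may be partly technical.

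Rnaseh2b transcripts were lower in both genotypes with its deletion (7.15 to 7.21 in Rnaseh2b ΔIEC and 7.68 to 7.92 in Atg16l1/Rnaseh2b ΔIEC, against 8.41 to 8.70 in WT, log2 values). Atg16l1 stood at 6.73 to 7.35 in Atg16l1 ΔIEC and at 8.14 to 8.57 in Atg16l1/Rnaseh2b ΔIEC, against 9.43 to 9.54 in WT, so each targeted gene was higher in the double deletion than in the matching single deletion. The library names place the 4 WT libraries in lane 1 and the 6 libraries of both single deletions in lane 2, whereas the double deletion has 2 libraries in each lane. Lane and genotype therefore cannot be told apart in the comparisons of a single deletion with WT, other than through the double deletion. Within the 3 genotypes with 4 libraries, replicates 1 and 2 shared their deviations from the group mean, as did replicates 3 and 4 (correlation across genes 0.41 to 0.86 over 6 such pairs). In the double deletion replicates 1 and 2 are the libraries of lane 2 and replicates 3 and 4 those of lane 1. A lane difference therefore cannot be told apart from a pair difference, and a lane covariate carries both. The Rnaseh2b ΔIEC libraries bear the numbers 1 and 2, and with only 2 libraries it could not be checked whether they share deviations, so they were treated as a pair where pairs are modelled. The read depth is unknown, since the values are already normalized. Of 7 leukocyte markers in the table, Itgam (mean log2 value 5.63) passed the filter, Csf1r was at 2.38, Ptprc at 0.49, and Cd79a, Cd3e, Itgax and Adgre1 between -0.94 and -1.97. Of 5 stromal and endothelial markers, Pecam1 (4.37) passed the filter, Col1a1, Acta2 and Pdgfra were at 2.08, 2.01 and 1.47, and Col1a2 was at -1.33.

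Tuft cells sense luminal succinate through the succinate receptor (gene Sucnr1) and other compounds through taste-type receptors, which act through G proteins. The signal runs through phospholipase C and the release of stored calcium to TRPM5, a cation channel that depolarizes the cell. Tuft cells answer with interleukin-25, acetylcholine and cysteinyl leukotrienes, through which they start type 2 immunity against helminths. POU2F3 is the transcription factor without which the lineage does not form, and it works with the coactivators OCA-T1 and OCA-T2, encoded by Pou2af2 (1810046K07Rik in the annotation used) and Pou2af3 (Colca2). GFI1B is a repressor found in mature tuft cells. ALOX5AP presents arachidonic acid to 5-lipoxygenase in leukotriene synthesis. DCLK1 is a microtubule-associated kinase, AVIL (advillin) an actin-binding protein of the apical tuft, and SH2D6 an SH2-domain adaptor protein.

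In GRCm38 (GENCODE M21), Pou2f3 (ENSMUSG00000032015) lies on chromosome 9 from 43123939 to 43210369 and Gfi1b (ENSMUSG00000026815) on chromosome 2 from 28609450 to 28621982, both on the minus strand. Trpm5 (ENSMUSG00000009246) lies on chromosome 7 from 143069153 to 143094642 on the minus strand, and Alox5ap (ENSMUSG00000060063) on chromosome 5 from 149264767 to 149288153 on the plus strand. Dclk1 (ENSMUSG00000027797) lies on chromosome 3 from 55242364 to 55539068 and Avil (ENSMUSG00000025432) on chromosome 10 from 127000709 to 127020994, both on the plus strand. Sh2d6 (ENSMUSG00000052631) lies on chromosome 6 from 72513641 to 72521707 on the minus strand. The setting of the counter for strand is not stated, and some exons overlap those of genes on the opposite strand. These overlaps cover 220 of the 6398 exon bases of Trpm5 (with Tssc4), 165 of the 3398 of Avil (with Tsfm), 189 of the 1420 of Alox5ap (with the antisense gene Gm19719), and 87 and 27 of the 15296 of Dclk1 (with Gm42609 and Gm21954).

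POU-family factors bind the octamer ATGCAAAT, so the promoters were searched for it on both strands, in windows of 300 bases around the RefSeq start sites (GRCm38.p6). Of the members, 5 of 7 had an entry, with 6 windows in all. None of the 6 windows held ATGCAAAT, which occurred in 1.74% of all 32851 windows. The core ATGCAAA, a part of the octamer that was searched after the full motif, occurred in 4.63% of all windows. It stood 2 times in the window of Avil, the member whose level differed most between genotypes, and in no other window of a member. Of the 32851 windows, 96 held the core 2 or more times. The windows of Colca2, Spib, Hmx2 and Hmx3, which were also searched, held neither motif. One of the windows of the coactivator gene 1810046K07Rik held 2 octamers, on opposite strands, and its other window held none. Of the 32851 windows, 35 held 2 or more octamers, whatever the strands. The 250 bases before the start sites of Avil and 1810046K07Rik are shown because these genes had the largest differences between Rnaseh2b ΔIEC and WT organoids. They are written 5′ to 3′ on the strand of the gene, with ATGCAAA or ATGCAAAT and their reverse complements in capitals.
Avil, chr10:127000459-127000708, plus strand: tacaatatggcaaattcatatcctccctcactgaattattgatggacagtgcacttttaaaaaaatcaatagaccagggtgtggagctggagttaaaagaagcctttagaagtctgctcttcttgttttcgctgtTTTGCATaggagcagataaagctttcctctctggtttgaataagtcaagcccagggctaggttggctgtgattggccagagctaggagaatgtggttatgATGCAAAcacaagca
1810046K07Rik, chr9:51328919-51329168, minus strand: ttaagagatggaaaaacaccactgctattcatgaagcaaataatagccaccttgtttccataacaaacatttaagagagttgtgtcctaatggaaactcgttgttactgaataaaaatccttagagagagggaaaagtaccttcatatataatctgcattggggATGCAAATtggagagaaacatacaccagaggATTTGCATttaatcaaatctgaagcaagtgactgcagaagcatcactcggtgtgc
In Avil the matches started 115 and 15 bases before the start site. In 1810046K07Rik they started 86 and 55 bases before it. These are matches of letters and say nothing of binding.

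All 6 tested tuft cell genes were lower in Rnaseh2b ΔIEC than in WT organoids, and both Rnaseh2b ΔIEC libraries lay below every WT library for each of them. Among all 12802 genes tested, 27% separated in this way and direction. Avil fell most, to 33.5% below WT on the linear scale, followed by Dclk1 (24.6%), Trpm5 (23.3%) and Sh2d6 (19.3%), and these 4 genes passed the test. The percentages are back-transformed from the deposited values, which reduce differences at low levels. The order is thus uncertain for Sh2d6 (mean log2 value 4.67) beside Avil (7.21). Among all genes tested, 12.3% were called lower and 14.4% higher. The median log2 difference of the 6 genes was -0.35, against 0.00 over all genes tested. In whole organoids, fewer tuft cells and less of these transcripts per tuft cell cannot be told apart.

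The transcription factor Pou2f3 was at 6.48 and 6.52 (log2 values, as all levels below) in the Rnaseh2b ΔIEC libraries and at 6.56, 6.64, 6.75 and 6.90 in the WT libraries. Atg16l1 ΔIEC organoids had 6.50, 6.76, 6.51 and 6.41, and Atg16l1/Rnaseh2b ΔIEC organoids had 6.52, 6.58, 6.47 and 6.44. The difference between Rnaseh2b ΔIEC and WT was -0.21 (standard error 0.10) and did not pass the test (limma adjusted p = 0.13). Pou2f3 was highest in WT organoids, but the other 3 genotypes, with means of 6.50 to 6.55, lay closer together than the WT libraries did among themselves.

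Gfi1b, with a mean of 1.64, was under the level at which differences could be measured. Its libraries were between 1.61 and 1.73, and the groups overlapped in every comparison. At this level the table compresses differences: genes with means of 1 to 2 had a median SD of 0.025 between libraries, against 0.151 for genes at 6 to 7. The difference of Gfi1b was -0.03 between Rnaseh2b ΔIEC and WT (two-sided exact permutation p = 0.4, where the smallest possible with 2 and 4 libraries is 0.133). In Atg16l1 ΔIEC and Atg16l1/Rnaseh2b ΔIEC it was -0.03 and -0.02 against WT (exact permutation p = 0.514 and 0.571, smallest possible 0.0286). Between the double deletion and Rnaseh2b ΔIEC or Atg16l1 ΔIEC it was 0.01 and 0.00 (exact permutation p = 0.667 and 0.886).

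The channel gene Trpm5 was at 7.08 and 6.89 in Rnaseh2b ΔIEC and at 7.25, 7.11, 7.55 and 7.56 in WT organoids. The WT libraries fell into a lower and a higher pair, and only the lower pair came close to Rnaseh2b ΔIEC. The difference was -0.38 (SE 0.12, 95% confidence interval -0.64 to -0.12, limma adjusted p = 0.033). Atg16l1 ΔIEC libraries had 7.13, 7.30, 7.12 and 7.03 and Atg16l1/Rnaseh2b ΔIEC libraries 7.21, 7.22, 7.05 and 7.24, between the means of the other groups.

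Alox5ap, near the lower end of the tested range, was at 4.12 and 4.18 in Rnaseh2b ΔIEC and at 4.25, 4.40, 4.28 and 4.23 in WT organoids. It was at 4.14, 4.30, 4.29 and 4.22 in Atg16l1 ΔIEC and at 4.25, 4.29, 4.24 and 4.24 in Atg16l1/Rnaseh2b ΔIEC libraries. The difference between Rnaseh2b ΔIEC and WT was -0.14 (SE 0.05) and did not pass the test (limma adjusted p = 0.067). Differences at this level are also reduced by the scale of the table.

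The microtubule-associated kinase Dclk1 was at 6.93 and 6.90 in Rnaseh2b ΔIEC and at 7.27, 7.25, 7.38 and 7.39 in WT organoids, a difference of -0.41 (SE 0.11, 95% confidence interval -0.65 to -0.17, limma adjusted p = 0.017). Atg16l1 ΔIEC libraries had 7.01, 7.20, 7.25 and 7.15. The Atg16l1/Rnaseh2b ΔIEC libraries spread widely, with 7.16, 7.42, 6.90 and 7.07, so that replicate 3 was level with the Rnaseh2b ΔIEC libraries and replicate 2 exceeded every WT library.

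The actin-binding protein gene Avil was at 6.76 and 6.83 in Rnaseh2b ΔIEC and at 7.29, 7.34, 7.46 and 7.44 in WT organoids. It was at 7.16, 7.41, 7.18 and 7.15 in Atg16l1 ΔIEC and at 7.23, 7.40, 7.03 and 7.20 in Atg16l1/Rnaseh2b ΔIEC libraries. Both Rnaseh2b ΔIEC libraries were below all 12 others. The difference from WT was -0.59 (SE 0.10, 95% confidence interval -0.80 to -0.38, limma adjusted p = 0.0012), and only this one of the 6 held when either Rnaseh2b ΔIEC library was left out.

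The adaptor gene Sh2d6 was at 4.44 and 4.48 in Rnaseh2b ΔIEC and at 4.62, 4.80, 4.83 and 4.82 in WT organoids. The difference was -0.31 (SE 0.08, 95% confidence interval -0.48 to -0.14, limma adjusted p = 0.012). Atg16l1 ΔIEC libraries had 4.55, 4.74, 4.81 and 4.77 and Atg16l1/Rnaseh2b ΔIEC libraries 4.52, 4.72, 4.64 and 4.69, and all of these were above both Rnaseh2b ΔIEC libraries.

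**Figure D1:**
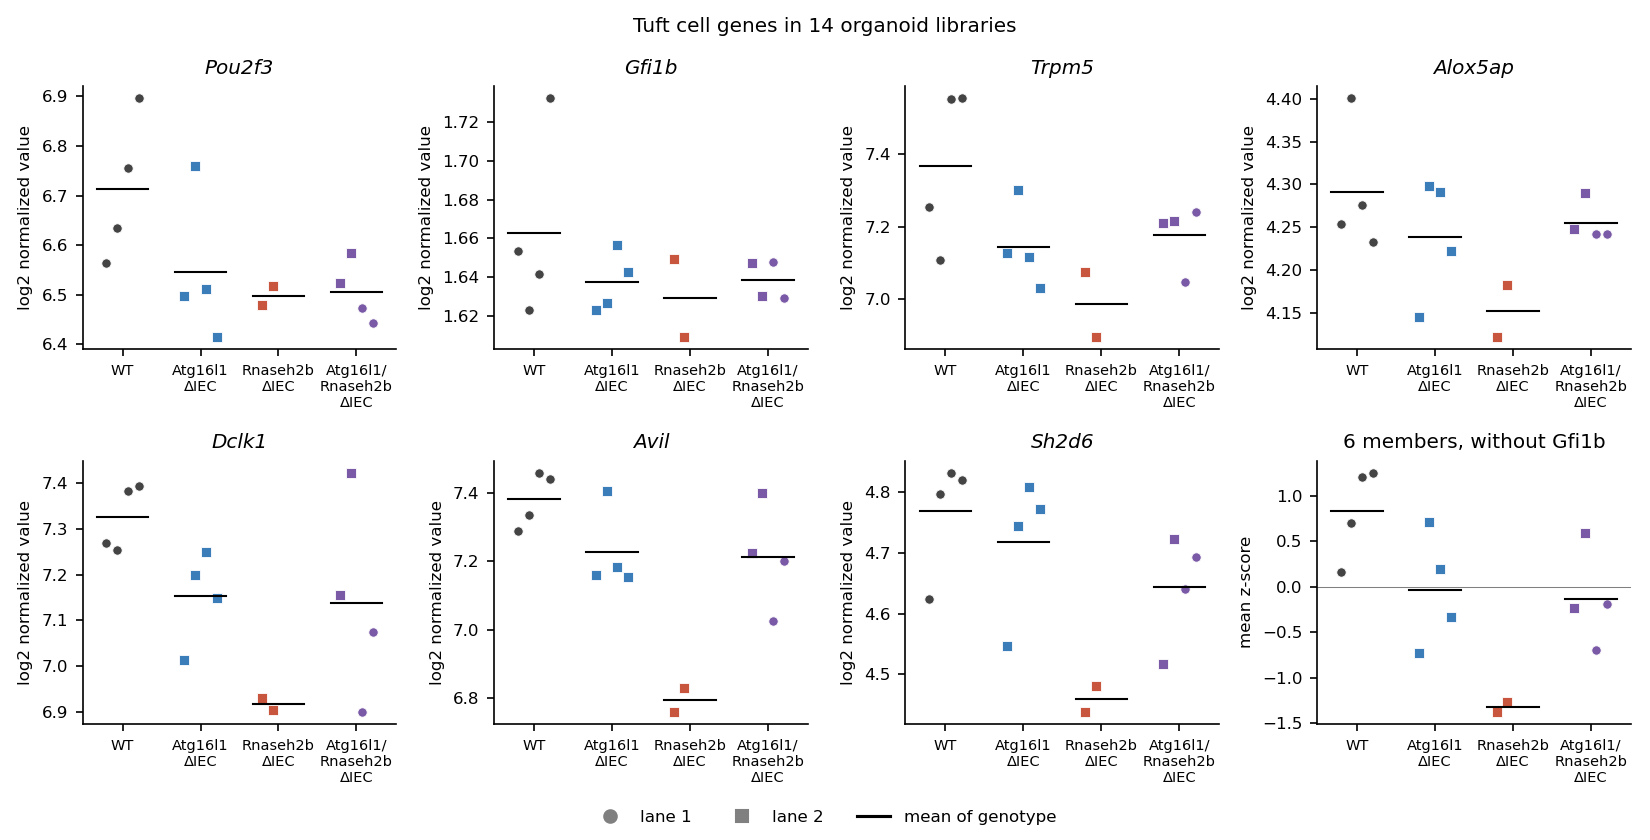
Log2 normalized values of the 7 tuft cell genes in each of the 14 libraries (y axis) by genotype (x axis), with the marker shape giving the sequencing lane, a bar at the mean of each genotype, and a last panel with the mean z-score of the 6 tested genes. The 2 Rnaseh2b ΔIEC libraries lie below every WT library in all panels but that of Gfi1b, whose libraries stay between 1.61 and 1.73.

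These calls depended on how the paired libraries were treated. With the correlation within pairs of libraries estimated (0.65), Avil alone of the 4 remained below the threshold (limma adjusted p = 0.043), while Dclk1, Trpm5 and Sh2d6 had adjusted p = 0.17, 0.20 and 0.20. That fit called 728 genes in all, in place of 3424. With each pair averaged to 1 value, Rnaseh2b ΔIEC was left with 1 value, so that fit could not decide on any of the 6 genes. When the first or the other Rnaseh2b ΔIEC library was left out, Dclk1 (adjusted p = 0.097 and 0.11), Trpm5 (0.080 and 0.25) and Sh2d6 (0.11 and 0.069) were lost, on the assumption that the lone library varies like the other groups. Trpm5 was also lost without WT replicate 3 (0.079) or 4 (0.076), and Alox5ap passed without Atg16l1 ΔIEC replicate 1 (0.049). With lane as a covariate, Avil (-0.79, adjusted p = 0.0034) and Dclk1 (-0.71, adjusted p = 0.0061) passed, and Trpm5 (-0.45, 0.13) and Sh2d6 (-0.26, 0.18) did not. The lane term rests on the pairs of the double deletion, so lane and pair cannot be told apart in it.

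Deletion of Atg16l1 alone gave smaller differences from WT, and none of the 6 tested genes passed, against a background of 10.4% called lower and 8.73% higher. All 6 differences were below 0, with a median of -0.16. They were -0.22 for Trpm5, -0.17 for Dclk1 and Pou2f3, -0.16 for Avil and -0.05 for Sh2d6 and Alox5ap (limma adjusted p = 0.13 to 0.62), and 1 gene, Trpm5, had an unadjusted p under 0.05. Dclk1 was the only 1 of the 6 whose Atg16l1 ΔIEC and WT libraries did not overlap (13.1% of all genes were lower without overlap), and it passed only with lane as a covariate (-0.47, adjusted p = 0.027). Pou2f3 passed without Atg16l1 ΔIEC replicate 2 (-0.24, adjusted p = 0.042), and Trpm5 without WT replicate 2 (-0.31, adjusted p = 0.040). The 95% confidence intervals reached from -0.44 (Trpm5) to 0.09 (Sh2d6). A fall of the size seen for Dclk1 in Rnaseh2b ΔIEC organoids lay inside the interval of Trpm5 only. These intervals cannot exclude such a fall in the other 5 genes, since they take paired libraries as independent and leave lane out. The lane-adjusted difference of Dclk1, -0.47, was itself beyond its interval here, whose lower end was -0.37.

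In Atg16l1/Rnaseh2b ΔIEC organoids the differences from WT were likewise small, and none of the 6 genes passed (background 8.01% lower and 8.1% higher). The median was -0.18. Pou2f3 (-0.21, SE 0.08, limma adjusted p = 0.094) was the 1 gene with an unadjusted p under 0.05, and Trpm5 (-0.19), Dclk1 (-0.19), Avil (-0.17), Sh2d6 (-0.13) and Alox5ap (-0.04) followed. Every one of the 6 overlapped with WT. Replicates 3 and 4 of the double deletion shared lane 1 with the WT libraries, and within lane 1, a comparison chosen after the data were seen, Dclk1 was lower (-0.34, adjusted p = 0.034) and Avil was at -0.27 (adjusted p = 0.070). Dclk1 also passed with lane as a covariate (-0.34, adjusted p = 0.027) and without replicate 2 of the double deletion (-0.28, adjusted p = 0.031).

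Avil was 0.42 higher in the double deletion than in Rnaseh2b ΔIEC organoids (SE 0.10, 95% confidence interval 0.21 to 0.63, limma adjusted p = 0.0083). Rnaseh2b itself was also higher in the double deletion (mean 7.81 against 7.18), and its bearing on Avil was not tested. No other of the 6 was called, against a background of 11.1% called higher and 14.4% lower. The other differences were 0.22 for Dclk1, 0.19 for Trpm5, 0.18 for Sh2d6, 0.10 for Alox5ap and 0.01 for Pou2f3 (adjusted p = 0.10 to 0.97). The 4 double deletion libraries lay above both Rnaseh2b ΔIEC libraries for Avil, Sh2d6 and Alox5ap, a separation that 24.1% of all genes showed. Within lane 2, which holds both Rnaseh2b ΔIEC libraries and replicates 1 and 2 of the double deletion, Avil (0.52, adjusted p = 0.013) and Dclk1 (0.37, adjusted p = 0.040) were higher. The call of Avil was lost with the estimated pair correlation (adjusted p = 0.14). With pairs averaged or without either Rnaseh2b ΔIEC library, that genotype was left with 1 value, and these fits could not decide on the call. Leaving out any single library kept the difference between 0.36 and 0.48.

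The difference of Rnaseh2b effects, with minus without the Atg16l1 deletion, passed the test for 2 of these genes. With Atg16l1 intact, the effect of Rnaseh2b deletion on Avil was -0.59 (Rnaseh2b ΔIEC against WT). With Atg16l1 deleted it was -0.01 (double deletion against Atg16l1 ΔIEC). The difference between these effects was 0.58 (SE 0.13, 95% confidence interval 0.30 to 0.85, limma adjusted p = 0.0039). For Dclk1 the effects were -0.41 and -0.02, and they differed by 0.39 (SE 0.14, 95% confidence interval 0.08 to 0.70, adjusted p = 0.0496). The calls stood against a background of 17% higher and 18.1% lower. The targeted transcripts were lost to unlike degrees. Rnaseh2b had a mean of 7.18 in Rnaseh2b ΔIEC and 7.81 in the double deletion. Atg16l1 had 6.92 in Atg16l1 ΔIEC and 8.39 in the double deletion. How much these levels bear on the difference of effects was not tested. Trpm5 (0.42, adjusted p = 0.054), Sh2d6 (0.23, 0.091), Alox5ap (0.16, 0.092) and Pou2f3 (0.17, 0.31) did not pass. Dclk1 was lost in 12 of the 14 fits that each left out 1 library and with a median centring of the libraries (0.058), and both genes were lost with the estimated pair correlation (Avil 0.080, Dclk1 0.27). With Atg16l1 deleted in both groups, none of the 6 genes was called (background 12.6% higher and 12.5% lower), none had an unadjusted p under 0.05, and the differences lay between -0.07 (Sh2d6) and 0.03 (Trpm5).

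**Figure D2:**
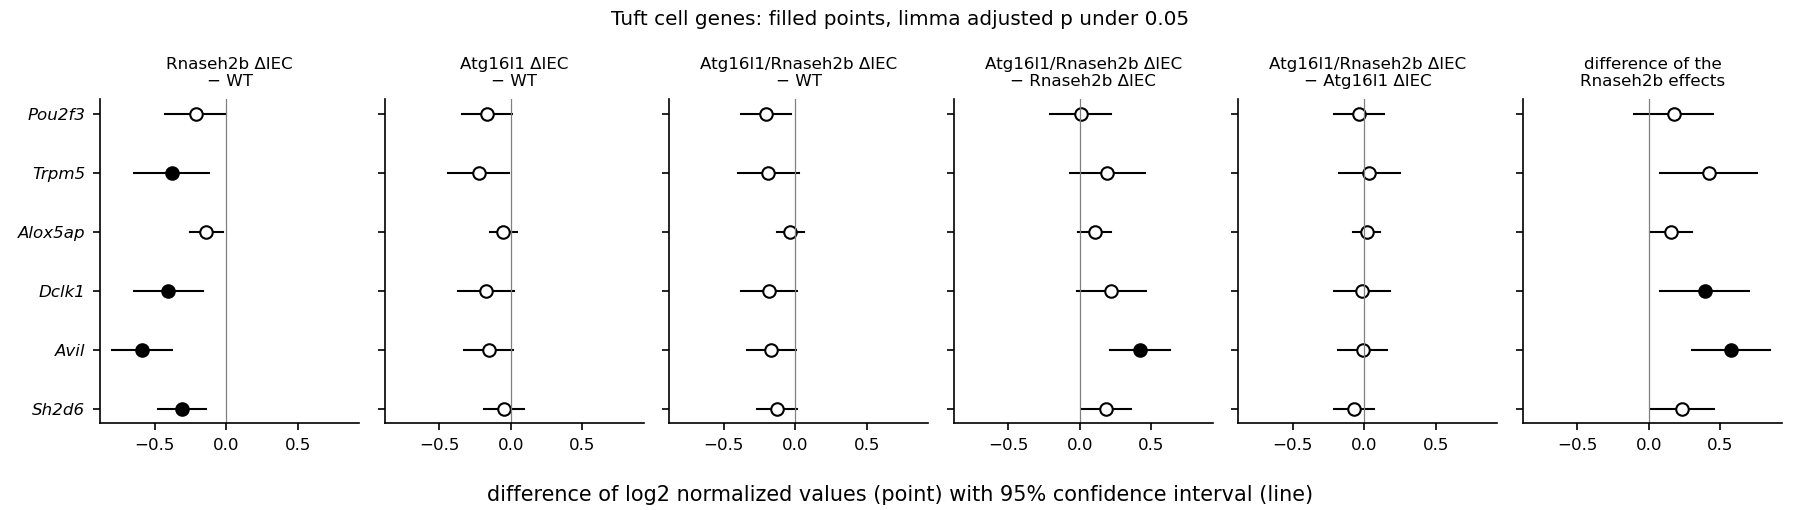
Differences of log2 normalized values (x axis, points) with 95% confidence intervals (lines) for the 6 tested tuft cell genes (y axis) in each comparison, with filled points for a limma adjusted p under 0.05. Avil has the largest differences, at -0.59 for Rnaseh2b ΔIEC against WT and 0.42 for the double deletion against Rnaseh2b ΔIEC, while Pou2f3 and Alox5ap have no filled point.

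The means of the 6 tested genes were highest in WT organoids for each gene and lowest in Rnaseh2b ΔIEC organoids for each gene. For Pou2f3 the lowest place was a near tie, at 6.50 in Rnaseh2b ΔIEC and 6.51 in the double deletion (limma adjusted p = 0.97). Avil was ordered WT (7.38 ± 0.08, SD, n = 4), Atg16l1 ΔIEC (7.23 ± 0.12, n = 4), Atg16l1/Rnaseh2b ΔIEC (7.21 ± 0.15, n = 4) and Rnaseh2b ΔIEC (6.79 ± 0.05, n = 2), where the middle genotypes did not differ beyond their spread. Dclk1 had means of 7.32 ± 0.07, 7.15 ± 0.10, 7.14 ± 0.22 and 6.92 ± 0.02 in the same order. Trpm5 had 7.37 ± 0.22 in WT, 7.18 ± 0.09 in Atg16l1/Rnaseh2b ΔIEC, 7.14 ± 0.11 in Atg16l1 ΔIEC and 6.98 ± 0.13 in Rnaseh2b ΔIEC organoids. Sh2d6 had 4.77 ± 0.10 in WT, 4.72 ± 0.12 in Atg16l1 ΔIEC, 4.64 ± 0.09 in Atg16l1/Rnaseh2b ΔIEC and 4.46 ± 0.03 in Rnaseh2b ΔIEC organoids.

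Over the 14 libraries, with the genotype differences included, the correlation of each gene with the mean of the other 5 (as z-scores) was 0.92 for Avil, 0.87 for Dclk1, 0.78 for Sh2d6, 0.72 for Trpm5, 0.70 for Pou2f3 and 0.59 for Alox5ap. These are descriptions over libraries that share genotype and pair, and they were not computed within genotypes. Summarized as the mean z-score of the 6 genes, Rnaseh2b ΔIEC libraries had -1.38 and -1.26. WT libraries ranged from 0.16 to 1.25, Atg16l1 ΔIEC libraries from -0.73 to 0.72 and Atg16l1/Rnaseh2b ΔIEC libraries from -0.69 to 0.59. The highest library of both Atg16l1-deleted genotypes was replicate 2.

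Other genes known from tuft cells were taken from a list of 46 genes, of which 45 were in the table and 32 passed the filter. In Rnaseh2b ΔIEC against WT organoids, 6 of the 32 (18.8%) were lower and 2 (6.25%) higher, beside 12.3% and 14.4% of all genes, with a median of -0.12 and 24 of the 32 below 0, where 49.4% of all genes were below 0. The lower genes were mostly those of the chemosensory signal, where 5 of 10 listed genes were tested. Of these 5, 4 were lower and all 5 were below 0. Atp2a3, a calcium pump of the endoplasmic reticulum, fell by 0.46 (limma adjusted p = 0.044), from 10.32, 10.33, 10.87 and 10.90 in WT to 10.14 and 10.16. Rgs13, a regulator of G-protein signalling, fell by 0.34 (adjusted p = 0.015), from 5.75 to 6.02 in WT to 5.61 and 5.52. The remaining chemosensory genes that fell were Plcb2 (-0.32, adjusted p = 0.0076), the phospholipase C of the taste pathway, and Itpr2 (-0.26, adjusted p = 0.039), a receptor that releases stored calcium, both named after their values were seen. Atp2a3 and Itpr2 had means of 10.44 and 9.16, above every member (Avil the highest, 7.21). Bpgm (10.32), Il4ra (9.85), Skap2 (9.98) and Cd24a (12.66), named below, also stood above the members. How much of these transcripts came from tuft cells was not tested. Among 12 adaptors and kinases, Lrmp, which encodes a membrane protein of the endoplasmic reticulum, fell by 0.34 (adjusted p = 0.0038), from 6.03 to 6.23 in WT to 5.73 and 5.81, and Inpp5d, a lipid phosphatase named after its value was seen, by 0.11 (adjusted p = 0.039). None of the 3 tested eicosanoid genes (Hpgds, Ptgs1, Ltc4s) and none of the 3 tested cytokine receptor genes (Il17rb, Il13ra1, Il4ra) passed. Atp2a3, Rgs13 and Lrmp all missed the threshold with the estimated pair correlation (adjusted p = 0.16, 0.14 and 0.13). So did Plcb2, Itpr2 and Inpp5d (adjusted p = 0.15, 0.20 and 0.38). In that fit 0 of the 32 genes were called lower and 2 higher, beside 300 lower and 428 higher of all 12802 genes. Atp2a3 and Rgs13 were lost without either Rnaseh2b ΔIEC library (0.19 and 0.17 for Atp2a3, 0.070 and 0.13 for Rgs13), and Lrmp was lost without the first (0.061).

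The rises were 1810046K07Rik and Bpgm. 1810046K07Rik, which encodes the POU2F3 coactivator OCA-T1 and whose octamers are shown above, was at 5.88 and 5.84 in Rnaseh2b ΔIEC organoids. It was at 4.86, 4.89, 4.99 and 5.08 in WT, at 4.90, 4.99, 4.99 and 4.93 in Atg16l1 ΔIEC and at 4.82, 5.07, 4.88 and 5.01 in Atg16l1/Rnaseh2b ΔIEC libraries. The Rnaseh2b ΔIEC libraries thus stood 0.90 above WT (SE 0.07, limma adjusted p = 1.1e-05) and opposite in direction to Avil, Dclk1, Trpm5 and Sh2d6. With the estimated pair correlation the call held (adjusted p = 0.0021). With pairs averaged, 1 Rnaseh2b ΔIEC value was left, so that fit could not decide on the call. The gene for the other coactivator, Colca2, did not differ beyond the spread (-0.05, adjusted p = 0.74), with 9.06 and 9.15 in Rnaseh2b ΔIEC and 9.05 to 9.22 in WT libraries. Bpgm, which makes 2,3-bisphosphoglycerate, was at 10.47 and 10.53 in Rnaseh2b ΔIEC and at 10.15 to 10.24 in WT libraries (0.31, adjusted p = 0.00032).

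**Figure D3:**
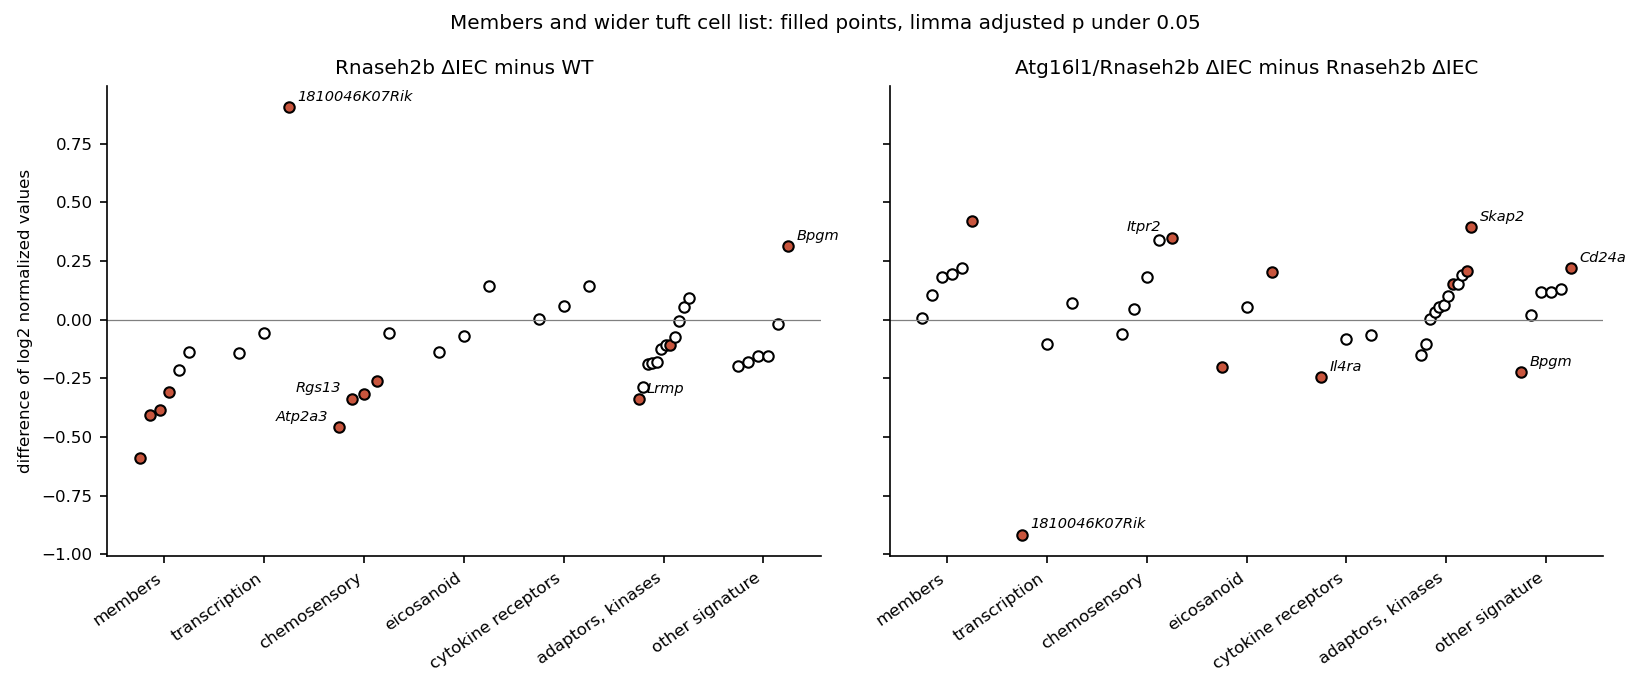
Differences of log2 normalized values (y axis) of the 6 tested tuft cell genes (members) and of 32 other genes known from tuft cells, by role (x axis), with 1 point per gene, filled for a limma adjusted p under 0.05. For Rnaseh2b ΔIEC against WT (left) 4 of the 5 chemosensory genes are filled and below 0 while 1810046K07Rik is at 0.90. For the double deletion against Rnaseh2b ΔIEC (right) 1810046K07Rik is at -0.92.

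In the double deletion 1810046K07Rik was back at the level of WT. It was 0.92 lower than in Rnaseh2b ΔIEC organoids (log2 difference -0.92, limma adjusted p = 3.4e-05) and stayed lower within lane 2 (-0.91, adjusted p = 0.0015). In this comparison 6 of the 32 genes (18.8%) were higher and 4 (12.5%) lower, beside 11.1% and 14.4% of all genes. With the estimated pair correlation, 1810046K07Rik alone of the 32 passed (adjusted p = 0.0035), where 692 of all 12802 genes did. Bpgm (-0.22, adjusted p = 0.0029) and Il4ra (-0.24, adjusted p = 0.012), a receptor chain for interleukin-4 and interleukin-13, also fell. Skap2 (0.40, adjusted p = 0.041), an adaptor of immune receptors, Itpr2 (0.35, adjusted p = 0.011) and the surface protein gene Cd24a (0.22, adjusted p = 0.048) rose most. Itpr2 was at 9.26, 9.11, 9.42 and 9.46 in the double deletion, all above the Rnaseh2b ΔIEC libraries, whose mean was 8.96 ± 0.05 (SD, n = 2). Skap2 was at 10.53 and 10.50 in the replicates from lane 1 and at 10.04 and 9.98 in those from lane 2, against 9.86 and 9.87 in Rnaseh2b ΔIEC. Most of its rise thus lay in the libraries of the other lane, which are also the other pair.

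Between Atg16l1 ΔIEC and WT organoids, Ly6g6d (0.28, limma adjusted p = 0.0055) and Bpgm (0.21, adjusted p = 0.0013) rose and Cd24a (-0.23, adjusted p = 0.021) fell. These are 2 of the 32 genes (6.25%) higher and 1 (3.13%) lower, beside 8.73% and 10.4% of all genes. In Atg16l1/Rnaseh2b ΔIEC against WT organoids Plcb2 fell (-0.27, adjusted p = 0.012) and Ptgs1, the prostaglandin synthase COX-1, rose (0.13, adjusted p = 0.041), 1 gene (3.13%) in each direction beside 8.01% lower and 8.1% higher of all genes. With the estimated pair correlation none of the 32 genes passed in either comparison with WT (adjusted p = 0.081 for Bpgm, 0.18 for Ly6g6d and 0.22 for Cd24a in the first, 0.22 for Plcb2 and 0.39 for Ptgs1 in the other). Of all 12802 genes, that fit called 384 in the first comparison and 85 in the other. Against Atg16l1 ΔIEC organoids the double deletion had 4 of the 32 genes (12.5%) higher and 4 (12.5%) lower, beside 12.6% and 12.5% of all genes. Skap2 (0.46, adjusted p = 0.0094), Cd24a (0.29, adjusted p = 0.0055) and Itpr2 (0.27, adjusted p = 0.016) rose most, and Ly6g6d (-0.18, adjusted p = 0.037), Il4ra (-0.17, adjusted p = 0.025) and the taste receptor gene Tas1r3 (-0.15, adjusted p = 0.026) fell most. With the estimated pair correlation only Skap2 passed (adjusted p = 0.038), where 478 of all 12802 genes did. The difference of Rnaseh2b effects passed the test for 10 of the 32 genes, positive in 7 and negative in 3 (21.9% and 9.38%, beside 17% and 18.1% of all genes). With the estimated pair correlation 1810046K07Rik (adjusted p = 0.0050), Bpgm (0.011) and Itpr2 (0.032) passed, where 1553 of all 12802 genes did. With pairs averaged, Rnaseh2b ΔIEC was left with 1 value, and that fit could not decide on the 32 genes.

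Several transcripts that define the output of tuft cells were under the filter in all genotypes. The mean log2 value was -1.65 for Il25, -0.03 for Chat, which makes acetylcholine, and 0.03 for the succinate receptor gene Sucnr1. The taste G-protein genes Gnat3 (-0.16) and Gng13 (0.63) were as low, and Alox5 (3.12), whose product works with ALOX5AP, fell just short. Their changes were not measurable on this scale.

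Among the 10 genes outside the set that followed the mean z-score of the 6 genes most closely over the 14 libraries were Mid1ip1 (r = 0.90), Anxa4 (0.89), Cdc25b (0.87), Nos2 (0.87), Lrmp (0.86), Fyb (0.86), Pdlim5 (0.86), Fry (0.86) and Rgs13 (0.85). Lrmp, Fyb and Rgs13 were in the list of other tuft cell genes. These r values include the differences between genotypes. With the mean of each genotype removed, those of the named genes lay between 0.55 (Lrmp) and 0.81 (Fyb). Among 12796 genes, with the genotype differences included, the 32 genes of that list had a median r of 0.35 and all genes one of -0.02. Of the 32, 13 were above the 95th percentile of all genes (0.60). 1810046K07Rik ran opposite between genotypes, and within genotypes its deviations followed those of the z-score (r = 0.75 over 14 libraries).

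**Figure D4:**
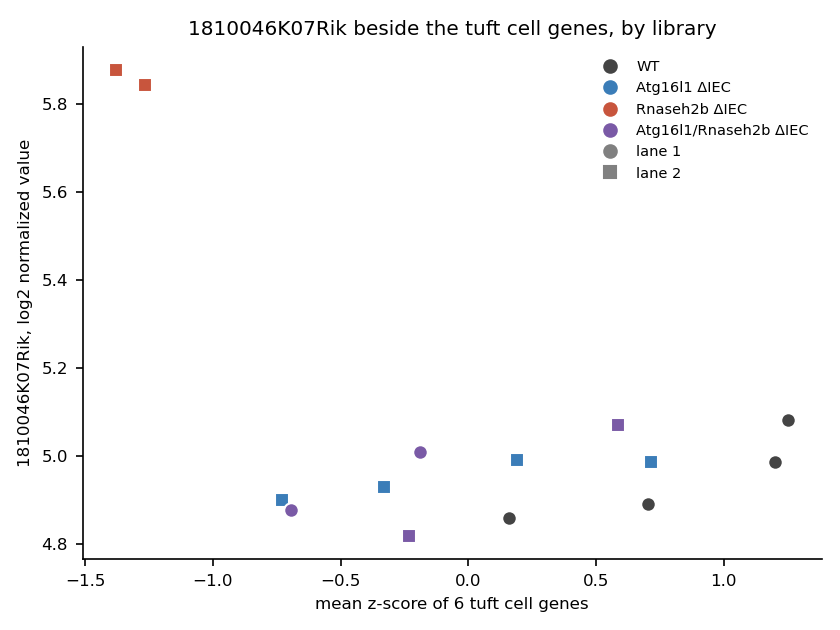
Log2 normalized value of 1810046K07Rik (y axis) against the mean z-score of the 6 tested tuft cell genes (x axis) in 14 libraries, coloured by genotype and shaped by lane. The 2 Rnaseh2b ΔIEC libraries stand apart at the top left, with z-scores of -1.38 and -1.26, and the other 12 libraries lie between 4.82 and 5.08.

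Markers of other epithelial cell types also differed in these comparisons, in which 12.3% of all genes were lower and 14.4% higher in Rnaseh2b ΔIEC than in WT organoids. In Rnaseh2b ΔIEC against WT organoids, 9 of 10 enterocyte markers were higher (median difference 1.12), and the log2 of their summed level was 18.64 to 18.77 against 17.58 to 18.20. Enteroendocrine markers were lower for 3 of 8 (median -0.38, summed level 13.88 to 13.92 against 14.14 to 14.53) and goblet cell markers for 3 of 8 (median -0.39, 15.24 to 15.40 against 15.66 to 16.19). Stem cell markers were lower for 2 of 6 (median -0.27, 15.03 to 15.11 against 15.32 to 15.45) and Paneth cell markers for 0 of 7 (median 0.01, 14.72 to 14.97 against 14.96 to 15.08). Between the double deletion and Rnaseh2b ΔIEC organoids the enterocyte markers were lower for 9 of 10 (median -1.21), and the goblet markers were higher for 6 of 8 (median 0.73) and the enteroendocrine markers for 5 of 8 (median 0.43), where 14.4% of all genes were lower and 11.1% higher. With the estimated pair correlation, 4 of the 10 enterocyte, 2 of the 8 goblet, 1 of the 6 stem cell and 0 of the 8 enteroendocrine markers passed in Rnaseh2b ΔIEC against WT organoids, where 728 in place of 3424 genes were called in all. Between the double deletion and Rnaseh2b ΔIEC organoids 7 enterocyte, 4 goblet and 2 enteroendocrine markers did, where 692 in place of 3262 genes were called in all. The summed level of 7 leukocyte markers was 5.69 to 5.74 in Rnaseh2b ΔIEC and 5.71 to 6.03 in WT organoids, and of these markers only Itgam passed the filter. How much these shifts bear on the levels of the tuft cell genes was not tested.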

How the data were processed

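RNA of 14 small intestinal organoid cultures was sequenced as stranded mRNA libraries. Per the submitters' processing notes and methods, reads were trimmed with cutadapt, aligned to GRCm38 with TopHat2, counted with HTSeq and analysed with DESeq2; versions are not given in the sources used here. The deposited values are log2 values after a transformation that is not named, which shrinks differences of low genes. Each of the 14 columns was tied to its sample through the library name. Symbols and coordinates were taken from GENCODE M21 (99.7% of identifiers).

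The log2 values were tested as deposited with limma 3.58.1 in R 4.3.3 (lmFit, contrasts.fit and eBayes with trend) in 12802 genes with a mean of at least 3.32, with 1 mean per genotype and Benjamini-Hochberg adjustment over all of them at 0.05. Gfi1b was compared with exact permutation tests in scipy 1.17.1. The code was tested on simulated data. The members and lists were chosen with earlier results of these data known. The text names all 7 members, the 3 largest rises and falls of the wider list in each comparison, and the 10 genes most like the members, of which 1 is not reported here. Alternatives were pseudocounts of 1 and 5 on back-transformed values, no filter, a filter of 50, median centring, lane as a covariate, lane 2 libraries only, the replicate block, only the groups compared, an estimated correlation within pairs of libraries, averaged pairs and leaving out each library. A fit within lane 1 was added once the values had been seen. The table allows no recovery of reads, so no count test was used. Plots were made in matplotlib 3.10.9.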

Additional observations from a re-analysis of the deposited data

Results flagged for a closer look

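The effect of Rnaseh2b deletion differed with the Atg16l1 genotype (effect with minus effect without the Atg16l1 deletion, limma adjusted p under 0.05) for Avil (0.58), Dclk1 (0.39), Atp2a3 (0.60), Itpr2 (0.53), Skap2 (0.53), Cd24a (0.45), Lrmp (0.33), Il4ra (-0.32), Bpgm (-0.44) and 1810046K07Rik (-0.91). With lane as a covariate that of Skap2 was -0.23. The genotypes with the Rnaseh2b deletion differed in their Rnaseh2b level, as given above.

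Single libraries stood far from the other 3 of their genotype in 7 of 60 groups examined, where chance alone gives about 1 in 20. Among the members these were replicate 3 of Atg16l1/Rnaseh2b ΔIEC for Trpm5 (7.05, lowest), replicate 2 of the same genotype for Alox5ap (4.29, highest), replicate 2 of Atg16l1 ΔIEC for Avil (7.41, highest) and replicate 1 of WT for Sh2d6 (4.62, lowest). In the wider list they were replicate 2 of Atg16l1 ΔIEC for Atp2a3 (10.63, highest), replicate 1 of Atg16l1/Rnaseh2b ΔIEC for Bpgm (10.37, highest) and replicate 2 of WT for Il4ra (9.79, lowest). Leaving out any single library kept the difference of Avil between Rnaseh2b ΔIEC and WT between -0.62 and -0.55.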

How the results depend on the processing

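The 4 members called in Rnaseh2b ΔIEC against WT became 2 with lane as a covariate, 1 with the estimated pair correlation and 0 with pairs averaged, and 1 to 5 without single libraries. Against WT, Dclk1 was the 1 member called in place of 0 with the lane covariate, for Atg16l1 ΔIEC and for the double deletion, and for the double deletion also within lane 1, while leaving out single libraries gave 0 to 1 in either. In Atg16l1/Rnaseh2b ΔIEC against Rnaseh2b ΔIEC the 1 member became 2 with the lane covariate and within lane 2, and 0 with the pair correlation. Over all genes the calls went from 3262 to 3466, 2683 and 692 in these fits. This member count also depended on single libraries. For the difference of Rnaseh2b effects, 2 became 1 without the filter and with median centring and 0 with the pair correlation, and the count changed without single libraries. Over all genes the calls went from 4499 to 4367, 4461 and 1553 in the first 3 of these settings. In Atg16l1/Rnaseh2b ΔIEC against Atg16l1 ΔIEC no member was called under any alternative run, but Pou2f3 (0.0077), Dclk1 (0.14) and Avil (0.087) turned above 0 with the lane covariate and within lane 2. The value of Skap2 for the difference of effects turned to -0.23 with the lane covariate. Signs of uncalled values also turned without single libraries, in Atg16l1 ΔIEC against WT for Sh2d6 (-0.098 to 0.0068), in Atg16l1/Rnaseh2b ΔIEC against WT for Alox5ap (-0.055 to 0.0016), in the double deletion against Rnaseh2b ΔIEC for Pou2f3 (-0.019 to 0.028), and in Atg16l1/Rnaseh2b ΔIEC against Atg16l1 ΔIEC for Pou2f3 (-0.084 to 0.031), Trpm5 (-0.0038 to 0.086), Alox5ap (-0.015 to 0.036), Dclk1 (-0.11 to 0.064) and Avil (-0.076 to 0.050).

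Replicate numbers did not pair libraries across genotypes (correlation of same-numbered libraries -0.50 to 0.44, median -0.05, and 3 of 14 libraries correlated best with their own number). With the number as a replicate block, 4 members were called in Rnaseh2b ΔIEC against WT, 1 in Atg16l1/Rnaseh2b ΔIEC against Rnaseh2b ΔIEC and 3 for the difference of effects (Avil, Sh2d6 and Alox5ap, with Dclk1 lost at an adjusted p of 0.072). Depth is unknown, so the precision of low genes could not be given.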
